A study of Mus musculus with 4 samples.

Results

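Levels of 10 stress-inducible genes were examined in RNA sequencing counts from the sublingual gland, a mainly mucous salivary gland, of female mice. The genes are the immediate early genes Fos, Fosb, Jun, Junb, Egr1, Ier2, Atf3 and Dusp1 and the inducible heat shock genes Hspa1a and Hspa1b. They were chosen by name as markers of acute stimulation and stress, and each has a row in the count table of 24411 gene symbols. Both groups carried the Nkx2.3-/- genotype on a C57BL/6J background, with 2 libraries from mice aged 8 weeks (replicates 1 and 2) and 2 from mice aged 32 weeks (replicates 3 and 4). No library from a gland with intact Nkx2-3 was analysed here. The glands were frozen on dry ice and their RNA was extracted with Trizol. The sources used here do not give the hour of collection, the time from death to freezing, or whether a library is 1 animal or a pool.

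Immediate early genes are switched on within minutes of a stimulus, without new protein synthesis, by transcription factors already present in the cell. Their products include AP-1 subunits (Fos and Jun proteins), zinc finger factors such as Egr1, and phosphatases such as Dusp1 that shut the signal off again. Hspa1a and Hspa1b encode the inducible Hsp70 chaperones, which heat shock factor 1 switches on when proteins misfold. Tissue removal, handling of the animal and the daily rhythm of feeding can each induce such genes, so they are often read as a record of the minutes before a tissue was frozen.

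Total counts ran from 12925869 to 16484772 a library, and 1 count was worth 0.0582 to 0.0738 CPM (counts scaled to a common library size, with TMM factors that even out differences in RNA composition). The remaining Nkx2-3 signal was 21 to 31 counts a library, and the sources do not say which part of the gene was deleted. Markers of the labelled gland were abundant in every library, with Muc19, its gel-forming mucin, at 12021 to 20281 CPM. In whole glands, fewer cells of a type and less RNA per cell cannot be told apart.

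In mean level, Jun lay above the median gene kept for testing and the other 9 genes lay below it, with Ier2 the nearest of them. On a scale of CPM per kilobase of transcript, which allows genes to be compared, Jun had the highest mean level (4.997, range 3.42 to 5.98) and exceeded 59.0% of the genes kept for testing. Ier2 (2.68, range 1.72 to 3.94) was above 42.1% of them. Dusp1 (1.43), Junb (1.23), Atf3 (1.15) and Egr1 (1.14) were above 22.8% to 27.4%. Hspa1b (0.536), Fos (0.503) and Hspa1a (0.340) were above 6.02% to 11.0%. The places of Hspa1a and Hspa1b depend on how reads shared by the pair were counted, which is not stated. Fosb (0.0268) was below nearly every gene kept, but it was itself removed by the low-count filter that set those genes. The median gene kept had 3.59 CPM per kilobase. Neighbours in this order had ranges that did not overlap at 3 places: Ier2 over Dusp1, Egr1 over Hspa1b, and Hspa1a over Fosb. Jun and Ier2 overlapped in range, although Jun was the higher in each of the 4 libraries. The ranges of Dusp1, Junb, Atf3 and Egr1 all overlapped, as did those of Hspa1b, Fos and Hspa1a.

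**Figure D1:**
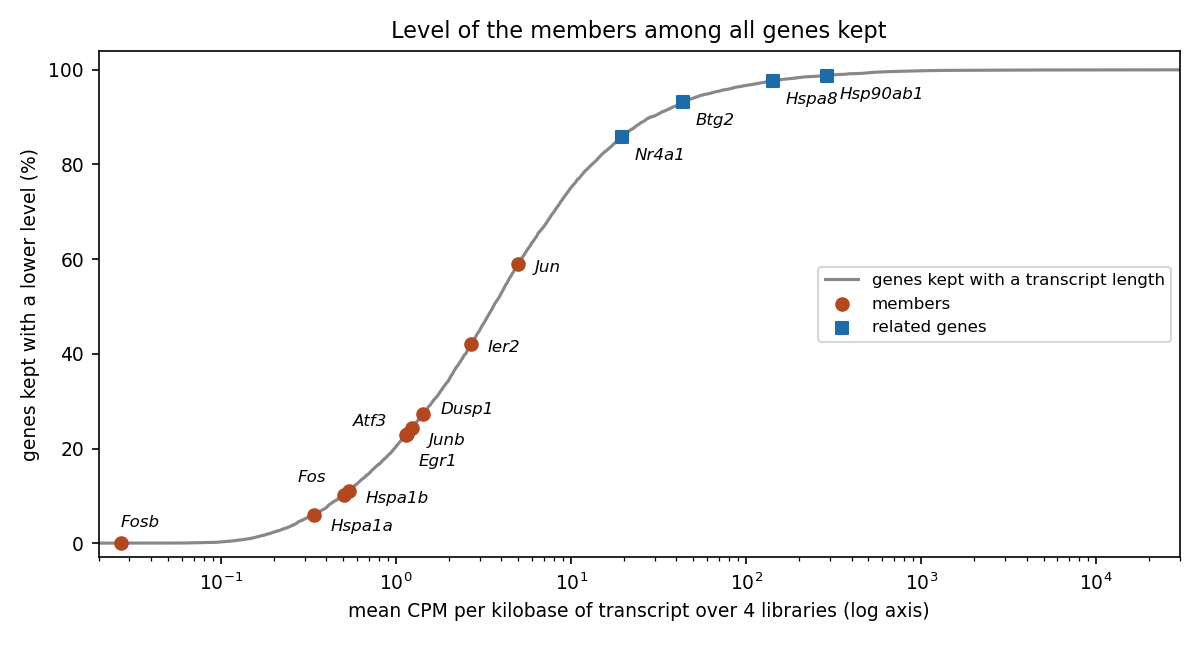
Mean level of each gene over 4 libraries, in CPM per kilobase of transcript on a log axis, against the percent of genes kept that were lower. Red circles are the 10 stress-inducible genes, blue squares are Nr4a1, Btg2, Hspa8 and Hsp90ab1, and the grey line is all genes kept with a known transcript length; Fos lies at 0.503 and Hspa8 at 143.

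Related genes of the same classes ranged from levels as low as these to far higher ones on that scale. Of other immediate early genes kept, Egr2 (0.188) was the lowest, and of other chaperones and heat shock factor targets Hspa4l (0.358) and Hspa1l (0.379) were, named here after their values were seen. The most abundant were far above them. Btg2, an antiproliferative early response gene, had a mean of 43.8 CPM per kilobase and Nr4a1, an early response orphan nuclear receptor, had 19.5. Hspa8, the constitutive Hsp70 chaperone, had 143, and Hsp90ab1, a constitutive Hsp90, had 288. Low counts for Fos, Fosb and Hspa1a were measured in libraries where other early response and chaperone transcripts were well sampled. For Hspa1a that does not settle its level, because it shares much of its sequence with Hspa1b and the handling of shared reads is not stated.

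The AP-1 genes differed widely in level. Fos, the prototype immediate early gene (chromosome 12, 86814840 to 86818223, plus strand, NCBIM37), had 22 and 19 counts at 8 weeks and 8 and 13 at 32 weeks. That is 1.62 and 1.31 CPM in the younger pair and 0.553 and 0.756 CPM in the older pair, so both older libraries lay below both younger ones. The log2 fold change (32 over 8 weeks) of Fos was -1.14 (SE 0.47, 95% interval -2.23 to -0.05, edgeR unadjusted p = 0.0423, adjusted p = 0.999), so it did not pass the test over all genes. Counting error alone was large: the 95% Poisson interval of 8 counts runs from 3.45 to 15.8, and no pair of libraries had separate intervals for Fos. Overlapping intervals do not show that counts agree within that error. Fosb, its close relative (chromosome 7, 19888070 to 19895394, minus strand), had 2 and 1 counts at 8 weeks and 1 and 2 counts at 32 weeks. All 4 values are at or under 3 counts, the upper limit that a count of 0 allows, and the low-count filter removed Fosb from the test.

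Jun, the commonest partner of Fos (chromosome 4, 94715725 to 94718913, minus strand), had 15.7 and 10.9 CPM in the younger pair and 19.1 and 18.03 CPM in the older pair. Both older libraries were above both younger ones (log2 fold change 0.48, SE 0.23, edgeR adjusted p = 0.999), and the gap within 8 weeks was larger than that between 8-week replicate 1 and either older library. With 158 counts, 8-week replicate 2 lay apart from the other 3 libraries beyond counting error. Without 8-week replicate 2 the log2 fold change of Jun was 0.24, and without 8-week replicate 1 it was 0.77, with an edgeR adjusted p of 0.064 against 0.98 or more for Jun with any other library left out. Junb, an AP-1 subunit that can oppose Jun (chromosome 8, 87500811 to 87502617, minus strand), had 2.36 and 1.38 CPM in the younger pair and 2.83 and 2.33 CPM in the older pair. The ages overlapped for Junb, and 8-week replicate 2 was again the lowest. The log2 fold change of Junb was 0.46 (SE 0.40, edgeR adjusted p = 0.999). It became 0.90 on dropping 8-week replicate 1 and 0.13 on dropping the other younger library.

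Promoters of Fos, Fosb, Junb, Atf3 and Dusp1 are shown because they match the core of a known element. Cyclic AMP and stress signals are known to act through that element. Jun had no such match. Sequences are from RefSeq (table build GRCm38.p6), available for 8 of the 10 genes, and were matched base for base to a single place on NCBIM37, whose coordinates are given. Each runs 5′ to 3′ on the gene's strand, within the 250 bases before the start. Capitals mark TGACG on either strand (the core of the cyclic AMP response element), and the full element TGACGTCA, which contains that core on both strands.
Fos, chr12:86814686-86814803, plus strand: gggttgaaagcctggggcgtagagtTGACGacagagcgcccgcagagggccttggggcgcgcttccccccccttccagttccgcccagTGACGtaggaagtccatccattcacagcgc
Fosb, chr7:19895425-19895479, minus strand: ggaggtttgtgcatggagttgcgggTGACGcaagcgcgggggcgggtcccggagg
Junb, chr8:87502724-87502778, minus strand: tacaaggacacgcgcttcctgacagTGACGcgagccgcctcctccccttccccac
Atf3, chr1:193007213-193007244, minus strand: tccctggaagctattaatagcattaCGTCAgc
Dusp1, chr17:26645528-26645633, minus strand: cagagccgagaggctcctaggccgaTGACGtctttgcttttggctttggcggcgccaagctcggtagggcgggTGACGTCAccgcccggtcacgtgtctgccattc
TGACG was found in 5 of the 8 promoters (Fos, Fosb, Junb, Atf3 and Dusp1), and in 17.8% of 32851 RefSeq promoter windows of the same length. TGACGTCA was found in Dusp1 alone among the 8, against 1.55% of windows. CACGTG, the E-box that clock factors can bind, was also found in Dusp1 alone, against 6.02% of windows. The CArG box (CC, a run of A or T, GG), bound by serum response factor, and TGANTCA, bound by AP-1, were found in none of the 8, against 1.47% and 6.75% of windows. These are matches of letters on both strands in a short window and no evidence of binding. Sites more than 250 bases before the start and variants of these patterns were not searched. A lack of matches therefore does not show that a gene lacks the element. Egr1 and Ier2 had no promoter sequence to search. The 5 genes with TGACG did not share an order of the libraries: Atf3 was highest in 8-week replicate 2, Junb lowest there, and Fos highest in 8-week replicate 1.

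Egr1 had a library whose counting interval lay apart from all the others, and Ier2 and Atf3 did not. Egr1, a zinc finger factor induced by growth factors and injury (chromosome 18, 35020861 to 35024638, plus strand), had 35 and 83 counts at 8 weeks and 40 and 52 at 32 weeks. This was 2.58 and 5.73 CPM in the younger pair and 2.77 and 3.02 CPM in the older pair. Only 8-week replicate 2 was high, and its interval of 4.56 to 7.10 CPM lay above those of the other 3 libraries. The log2 fold change of Egr1 was -0.52 (SE 0.42, edgeR adjusted p = 0.999), and it was 0.17 without 8-week replicate 2. Atf3, a stress-induced repressor of the same leucine zipper class as Fos and Jun (chromosome 1, 192994175 to 193007219, minus strand), followed the same order at its top. It had 1.92 and 3.52 CPM in the younger pair and 1.59 and 2.09 CPM in the older pair, highest in 8-week replicate 2. Its log2 fold change was -0.56 (SE 0.42, edgeR adjusted p = 0.999), and ranged from -0.92 without 8-week replicate 1 to -0.05 without 8-week replicate 2. Ier2, a small nuclear protein of the early response (chromosome 8, 87185230 to 87186751, minus strand), was instead highest in 32-week replicate 4. It had 3.84 and 2.62 CPM in the younger pair and 3.87 and 5.99 CPM in the older pair (log2 fold change 0.62, SE 0.35, edgeR adjusted p = 0.999). Both younger libraries were below both older ones, but 8-week replicate 1 and 32-week replicate 3 were nearly level. With single libraries left out, the log2 fold change of Ier2 ranged from 0.27 (without 32-week replicate 4) to 0.92 (without 8-week replicate 1).

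Dusp1, the phosphatase that switches off stress-activated MAP kinases (chromosome 17, 26642535 to 26645464, minus strand), varied least. It had 2.21 and 3.11 CPM in the younger pair and 3.18 and 2.91 CPM in the older pair, and the ages overlapped. From its lowest to its highest library Dusp1 changed 1.44-fold, and no pair of libraries had separate counting intervals. The log2 fold change was 0.19 (SE 0.34, edgeR adjusted p = 0.999), and -0.03 without 8-week replicate 1. Dusp1 is also induced by glucocorticoids, the hormones of the stress response.

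The inducible Hsp70 genes were at the lower end of detection. Hspa1a (chromosome 17, 35106144 to 35109069, minus strand) had 17 and 9 counts at 8 weeks and 11 and 23 at 32 weeks, or 1.25 and 0.621 CPM and 0.760 and 1.34 CPM. Hspa1b (chromosome 17, 35093381 to 35096183, minus strand) had 21 and 15 counts at 8 weeks and 26 and 28 at 32 weeks, or 1.55 and 1.04 CPM and 1.80 and 1.63 CPM. Hspa1a overlapped between the ages, whereas both older libraries were above both younger ones for Hspa1b, within their counting intervals. Neither passed the test (log2 fold changes 0.18, SE 0.55, and 0.41, SE 0.42, edgeR adjusted p = 0.999 for each). The sign for Hspa1a turned without 8-week replicate 2 (-0.23) and without 32-week replicate 4 (-0.29), and it was 0.77 without 8-week replicate 1. For Hspa1b it became 0.72 on dropping 8-week replicate 1 and 0.15 on dropping the other younger library.

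Reads of this pair cannot be divided with certainty. Of the 50-base windows of the Hspa1a coding sequence in the GENCODE vM1 transcript, 82.3% occur unchanged in Hspa1b, and of 100-base windows 68.1%. The sources used here do not say how reads with several possible origins were counted. The globin genes Hba-a1, Hba-a2, Hbb-b1 and Hbb-bt, which also have close copies, had 0 counts in all 4 libraries, while Alas2, the heme synthesis enzyme of red blood cells, had 44 to 79. Summed, Hspa1a and Hspa1b had 38 and 24 counts at 8 weeks and 37 and 51 counts at 32 weeks. The sum was 2.80 and 1.66 CPM and 2.56 and 2.97 CPM in the same order, with 8-week replicate 2 lowest (log2 fold change 0.31, SE 0.38, edgeR adjusted p = 0.999). Hspa1b supplied 54.9% to 70.3% of the sum. Hspa8, the constitutive relative, had 108 to 213 times as many counts as the sum. If reads matching both genes were left out of the counts, both levels and their sum would be too low. The ratio to Hspa8 would then be too high, which was not tested.

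The near identity of the pair extends to the promoters, which are shown whole for the 250 bases before the RefSeq start. Capitals mark the 3 positions at which the promoters differ and the run GAAGATTC, a match to GAANNTTC, a pair of inverted heat shock units.
Hspa1a, chr17:35109102-35109351, minus strand: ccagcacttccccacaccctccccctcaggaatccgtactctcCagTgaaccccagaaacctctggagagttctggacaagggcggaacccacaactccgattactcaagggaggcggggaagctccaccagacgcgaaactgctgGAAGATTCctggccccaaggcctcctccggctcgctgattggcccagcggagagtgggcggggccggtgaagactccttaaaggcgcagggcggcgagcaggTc
Hspa1b, chr17:35096184-35096433, minus strand: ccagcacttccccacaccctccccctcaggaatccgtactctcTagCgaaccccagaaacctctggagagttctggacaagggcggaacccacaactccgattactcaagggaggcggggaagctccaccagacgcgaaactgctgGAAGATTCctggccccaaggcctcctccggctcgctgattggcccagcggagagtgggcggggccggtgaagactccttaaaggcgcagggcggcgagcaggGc
Counted from 1 at the 5′ end of the stretch, with the Hspa1a base first, the differences are C44T, T47C and T249G, which leaves 98.8% of bases identical. GAANNTTC was found in Hspa1a, Hspa1b and Jun among the 8 promoters, and in 6.69% of all windows. The other orientation of the pair, TTCNNGAA, was found in none of the 8 and in 7.17% of windows, and either form in 12.8%. These shorter motifs were added after the promoters had been read. An exact run of 3 alternating heat shock units, with no mismatch or gap, was found in none of the 8 and in 0.466% of windows. Runs with a mismatch or a gap were not searched. The lack of an exact match therefore does not show that a promoter lacks a heat shock element.

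**Figure D2:**
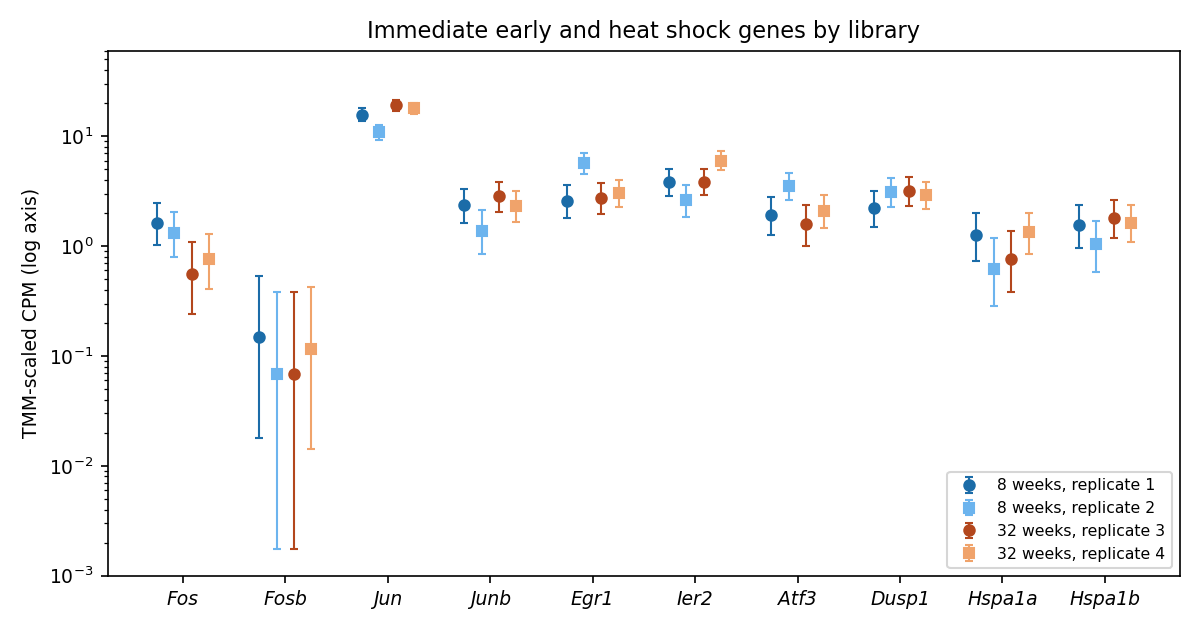
TMM-scaled CPM of each gene in each library on a log axis, with bars for 95% Poisson intervals, which cover counting error only. Blue is 8 weeks and red to orange is 32 weeks, circles are replicates 1 and 3 and squares replicates 2 and 4; Egr1 in 8-week replicate 2 (5.73 CPM) stands above its other libraries, and Jun in that library (10.9 CPM) stands below.

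None of these genes was called between the ages. With edgeR, 0 of the 9 genes tested passed an adjusted p of 0.05, where 0 of 12810 genes (0%) passed in all, and 1 of the 9, Fos, had an unadjusted p under 0.05, against 1.36% of all genes. DESeq2, which also tested Fosb, and limma-voom called 0 of them too. DESeq2 called 3 genes in all (0.0166%), which are Klk1b22, Lrrk2 and Smr3a. Both older libraries were above both younger ones for 3 of the 9 (Jun, Ier2 and Hspa1b), against 14.4% of all genes kept. Both were below for 1 of the 9 (Fos), against 14.2%. The median log2 fold change of the 9 was 0.19, and that of all genes kept was -0.01. Without 8-week replicate 1 the median of the 9 was 0.72 and edgeR called 285 genes in all, none of them among the 9. The widths of the intervals set the limit: that of Hspa1a ran from -1.11 to 1.47 and that of Jun from -0.06 to 1.02, and a 2-fold rise lay within the intervals of both. An exact permutation test of 2 libraries against 2 cannot go below p = 0.33.

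For 6 of the 10 genes (Fos, Fosb, Junb, Dusp1, Hspa1a and Hspa1b) the counting intervals of every pair of libraries overlapped. Such overlap is no test, and a difference beyond counting error can remain. On a log2 scale moderated with a prior of 2 counts, the lowest and highest library differed over 2-fold for 4 of the 9 genes (Fos, Egr1, Ier2 and Atf3), against 15.9% of all genes kept and 20.6% of those with a mean of 0.5 to 20 CPM. None of the 9 differed over 4-fold, and Fos had the widest spread, 2.56-fold on that scale. Their median spread was 1.96-fold, against 1.45-fold for all genes kept and 1.53-fold at a mean of 0.5 to 20 CPM. Apart from Jun, the 9 had means of 0.994 to 4.08 CPM, so the range of 0.5 to 20 CPM was not matched to their counts. Jun and Egr1 alone had a library apart from the other 3, and in each it was 8-week replicate 2, low for Jun and high for Egr1. That library was the lowest for 5 of the 9 genes (Jun, Junb, Ier2, Hspa1a and Hspa1b), where it was lowest for 35.3% of all genes kept. It was the highest for 2 of the 9 (Egr1 and Atf3), against 34.7%. No library was the highest or the lowest for all 9. Rn45s, a ribosomal RNA precursor named after its values were seen, made up 1.40% of counts in 8-week replicate 2. Its share was 3.69% in 8-week replicate 1, and 2.24% and 3.38% in 32-week replicates 3 and 4. Any bearing of this library difference on the 9 genes was not tested.

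**Figure D3:**
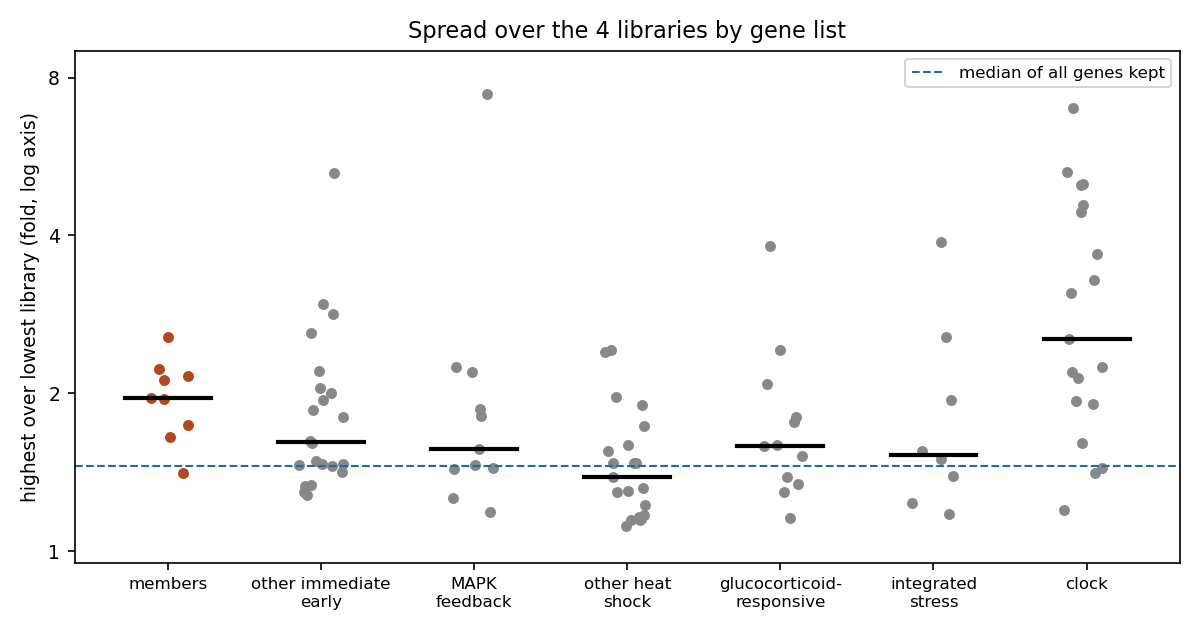
Fold from the lowest to the highest library for each gene tested, by gene list, on a log axis, with black bars for medians and a dashed line for the median of all genes kept (1.45-fold). The 9 stress-inducible genes (red) lie under 3-fold, the clock genes reach 6.99-fold, and Dusp8 of the MAP kinase feedback list reaches 7.43-fold.

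Other immediate early genes gave the same mixed picture. Of 27 listed, 22 were tested, 11 had positive and 11 negative fold changes between the ages, and none passed with edgeR (median log2 fold change -0.01). Btg2 had 129 and 122 CPM in the younger pair and 98.8 and 132 CPM in the older pair. Nr4a1 had 45.01 and 62.3 CPM in the younger pair and 41.9 and 43.4 CPM in the older pair, highest in 8-week replicate 2 as Egr1 was. Klf6, a zinc finger factor of the early response, had 35.1 and 44.1 CPM in the younger pair and 33.9 and 34.5 CPM in the older pair, with the same library on top. Rhob, an inducible small GTPase, had 21.8 and 15.2 CPM in the younger pair and 22.3 and 19.9 CPM in the older pair, lowest in that library as Jun was. Jund and Ier5, named after their values were seen, were also lowest there. Jund, the more constitutive relative of Jun, had 15.8 and 5.94 CPM in the younger pair and 17.1 and 16.4 CPM in the older pair, and Ier5 had 9.67 and 1.73 CPM in the younger pair and 5.74 and 6.46 CPM in the older pair. Feedback genes of the MAP kinase pathway, 11 tested of 13, were positive in 5 and negative in 6 (median -0.06), none passing. Among these, Dusp6, the phosphatase for ERK, had 28.6 and 42.3 CPM in the younger pair and 31.7 and 22.6 CPM in the older pair. Spry2 (16.7 to 24.4 CPM), Errfi1 (15 to 17.9 CPM) and Dusp16 (11.3 to 16.3 CPM) are inhibitors of growth factor and MAP kinase signals. They spread 1.46-, 1.19- and 1.44-fold over the libraries, against a median of 1.45-fold for all genes kept. Dusp8, named after its values were seen, spread most of the 11, 7.43-fold. It had 0.664 and 5.80 CPM in the younger pair and 1.73 and 3.61 CPM in the older pair. Of the 11, 3 (27.3%) spread over 2-fold, against 15.9% of all genes kept.

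Other chaperones and heat shock factor targets were not called between the ages. All 21 listed were tested, 11 with positive and 10 with negative fold changes, and none passed with edgeR (median log2 fold change 0.01). From lowest to highest library their median difference was 1.38-fold, against 1.96-fold for the 9 stress-inducible genes and 1.45-fold for all genes kept. These spreads were not compared by a test, and the most abundant chaperones had far more counts than the stress-inducible genes. Hsp90ab1 had 818 and 620 CPM in the younger pair and 745 and 720 CPM in the older pair, and Hspa8 had 368 and 352 CPM, then 328 and 320 CPM. Fkbp4, a co-chaperone of steroid receptors, had 90.0 to 117 CPM. Hsp90aa1, the stress-inducible Hsp90, had 122 and 61.8 CPM in the younger pair and 92.8 and 111 CPM in the older pair, lowest in the library where Hspa1a and Hspa1b were lowest. The factors themselves were level, with Hsf1, the main activator of Hspa1a and Hspa1b, at 9.89 to 11.6 CPM and Hsf2 at 2.91 to 3.76 CPM.

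Genes of hormonal and cellular stress were described in the same way. Of 12 glucocorticoid-responsive genes tested, 8 had positive and 4 negative fold changes, none passing (median 0.11). Mt1, a metallothionein, had 93.5 and 130 CPM in the younger pair and 142 and 105 CPM in the older pair, and Klf9, a direct target of the glucocorticoid receptor, had 60.8 to 84.3 CPM. Klf15 (30.3 to 53.6 CPM) and the receptor gene Nr3c1 (34.6 to 44.9 CPM) were lowest in 8-week replicate 2. Sgk1, a kinase induced by steroids and named after its values were seen, was high in 8-week replicate 2, with 24.03 CPM against 6.20, 6.91 and 6.75 CPM in 8-week replicate 1 and 32-week replicates 3 and 4. Of 8 tested genes of the integrated stress response and heme oxygenase list, 6 were positive and 2 negative (median 0.20). Atf4, its central factor, had 103.7 to 128 CPM, and Asns, an Atf4 target, had 116 and 222 CPM in the younger pair and 155 and 114 CPM in the older pair. Ddit3 (7.66 to 11.5 CPM) and Gadd45a (3.38 to 8.86 CPM), genes of growth arrest, were lowest in 8-week replicate 2.

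Clock genes, which report the phase of the daily rhythm, divided the libraries in another way. All 19 were tested and 13 (68.4%) differed over 2-fold between their lowest and highest library, against 4 of the 9 stress-inducible genes (44.4%) and 15.9% of all genes kept. Of the 19 clock genes, 6 (31.6%) differed over 4-fold, and none of the 9 did. Nr1d1, a repressor of the clock loop, had 79.8 and 146 CPM in the younger pair and 139 and 66.2 CPM in the older pair. Tef, an output factor, had 42.7 and 86.4 CPM in the younger pair and 83.1 and 34.0 CPM in the older pair. Nr1d2 had 61.4 and 72.2 CPM, then 67.9 and 44.8 CPM, while Rora was level at 36.7 to 43.9 CPM. Arntl, the activator of the loop, named after its values were seen, ran the opposite way, with 9.59 and 1.66 CPM in the younger pair and 1.80 and 12.4 CPM in the older pair. For Nr1d1, Tef and Arntl, 8-week replicate 2 thus paired with 32-week replicate 3, and 8-week replicate 1 with 32-week replicate 4. Per1 and Per2, clock genes that are themselves acutely inducible and were named after their values were seen, had their highest level in 8-week replicate 2 (6.28 and 6.01 CPM). In the other 3 libraries Per1 had 2.73 to 4.22 CPM and Per2 had 1.84 to 2.21 CPM. That library was the highest for 10 and the lowest for 4 of the 19 clock genes. It was the highest for 7 and the lowest for 10 of the 22 other immediate early genes tested, and the highest for 3 and the lowest for 6 of the 12 glucocorticoid-responsive genes. The part of collection time or handling in these values was not tested.

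**Figure D4:**
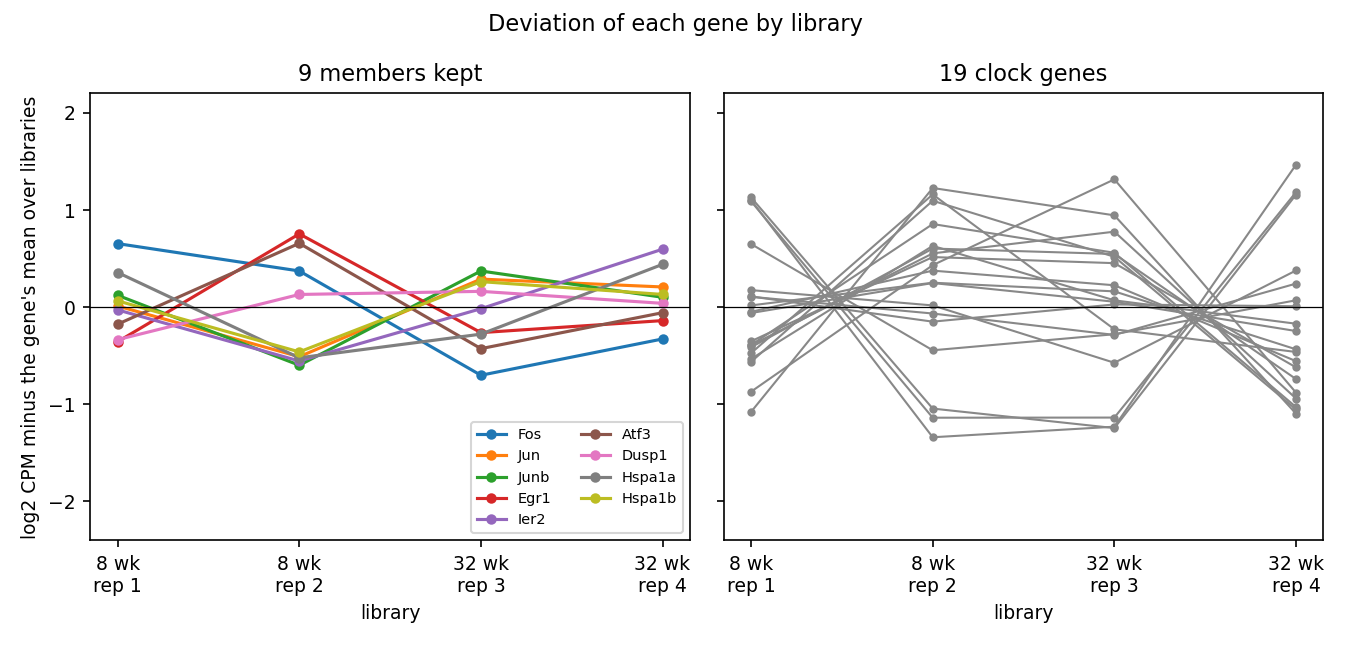
Deviation of log2 CPM from each gene's mean over the 4 libraries for the 9 stress-inducible genes tested (left) and 19 clock genes (right). Lines join the values of a gene and imply no order of libraries; Egr1 and Atf3 peak in 8-week replicate 2 (0.75 and 0.66), while Arntl is low in 8-week replicate 2 and 32-week replicate 3 (-1.34 and -1.23) and high in the other two.

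Markers of several cell types were at their lowest or highest in 8-week replicate 2, the library in which Jun was low and Egr1 high. The summed level of 5 B and plasma cell markers was 938 and 76.8 CPM in the younger pair and 525 and 814 CPM in the older pair, led by Jchain. All 3 tested members were lowest in 8-week replicate 2. For 5 macrophage and dendritic cell markers the sum was 61.8 and 38.3 CPM, then 47.6 and 62.9 CPM, with 4 of 5 lowest in that library. For 7 duct markers the sum was 2922 and 5427 CPM, then 3156 and 2356 CPM, led by Klk1, with 4 of 7 highest there. For 6 mucous acinar markers the sum was 155142 and 87706 CPM, then 63236 and 143595 CPM, lowest in 32-week replicate 3, as was Smgc, which makes up most of it. Of the 6, 4 were lowest in 8-week replicate 2. T and NK cell markers, led by Nkg7, summed to 7.53 and 2.28 CPM, then 2.21 and 5.35 CPM. No marker of these 5 lists was at 0 in all libraries, although the B cell marker Ms4a1 had counts only in 8-week replicate 1. Summed levels spanned narrower ranges for myoepithelial and basal markers (415 to 572 CPM) and endothelial markers (31.6 to 41.8 CPM). The same held for the sums of fibroblast markers (308 to 408 CPM) and Schwann cell and nerve markers (48.0 to 64.1 CPM). The most abundant genes of these lists were Acta2, Pecam1, Dcn and Mbp, in that order. Skeletal muscle markers summed to 2.80 to 6.63 CPM, led by Acta1, with Myh1 at 0 throughout. The sum of adipocyte markers, led by Cfd, ran from 18.2 CPM in 8-week replicate 1 to 0.277 CPM in 32-week replicate 3. Serous and demilune markers, led by Dcpp3, summed to 160906 and 345872 CPM, then 461206 and 182921 CPM. Submandibular and parotid gland markers, with Egf the most abundant, summed to 570 and 473 CPM, then 173 and 128 CPM. Egf itself had 159 and 258 CPM, then 157 and 123 CPM, and the sums differed mainly through genes named after their values were seen. Prol1 had 196 and 203 CPM, then 10.02 and 0.407 CPM. Amy1 had 152 CPM in 8-week replicate 1 and 28 or 29 counts in each of the others, and Smr3a had 49.7 CPM in 8-week replicate 1 and 0 counts in the others. The part of these cell types in the levels of the stress-inducible genes was not tested.

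Genes with the nearest pattern over the libraries were sought by distance. The median deviation of the 9 from their own means was 0.01 and -0.46 in the 8-week libraries and -0.02 and 0.10 in the 32-week libraries, on the log2 scale. In 8-week replicate 2, Egr1 (0.75), Atf3 (0.66), Fos (0.37) and Dusp1 (0.13) lay above their own means and the rest of the 9 below. The median pattern is thus not shared by all 9. Of 6684 genes with a mean of at least 10 CPM, the nearest by root mean square difference over the 4 libraries were Usp19, Ykt6, D17Wsu92e, Eif4g1 and Csrp2bp (0.0914 to 0.0931). Usp19, a ubiquitin protease, had 20.5 and 14.4 CPM in the younger pair and 19.8 and 21.3 CPM in the older pair. Eif4g1, a translation initiation scaffold, had 50.8 and 37.6 CPM, then 50.1 and 55.8 CPM. With 4 libraries, likeness of pattern is a description only.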

How the data were processed

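Counts from 4 libraries of mouse sublingual gland (2 at 8 weeks, 2 at 32 weeks) were used as deposited. The submitters' processing notes name STAR and mm9. Deposited were raw counts by gene symbol, which the authors had not normalized. For STAR's version, the counting tool, annotation, strand setting and multiply mapped reads, nothing is stated in the sources used here. BC042782, Gm17507 and Gm20481 lie on the other strand across part of Jun, Egr1 and Hspa1a, and in counts made without strand their reads cannot be told apart. As the labels do not say that libraries are separate animals, the spread behind each p-value may be technical.

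Ages were compared by quasi-likelihood in edgeR 4.0.16 (R 4.3.3), using TMM factors, filterByExpr by age (12810 of 24411 symbols kept, 9 of the 10 genes described), age as the only term and Benjamini-Hochberg adjustment over all genes kept, at 0.05. Standard errors are the fold change over the root of the F statistic. Libraries held 12925869, 14265485, 16484772 and 16111122 counts. A count of 0 allows up to 3 counts, 0.174 to 0.221 CPM; such limits and Poisson intervals cover counting error only, since reads carried no molecular identifiers. Levels per kilobase used the longest coding transcript in GENCODE vM1 on NCBIM37, the assembly named mm9, found for 11487 genes kept (89.7%). Alternatives were RLE factors (DESeq2 1.42.0's method), total counts, removal of the 10 most abundant genes, no filter on low counts, a minimum of 1 CPM in 3 libraries, DESeq2, limma-voom (limma 3.58.1), Hspa1a and Hspa1b summed, and each library left out. The edgeR fit was also run on counts simulated from its own dispersions, with 200 genes changed. Such a run cannot show how the fit holds for real libraries. Figures were drawn with matplotlib.

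The genes and lists were chosen with earlier results of these data known. The rule named all 10 genes, the 4 most abundant genes of each related list (fewer where a list held fewer), the most abundant gene of each marker list, the 5 genes nearest in pattern, and Nkx2-3; others are marked as named after their values were seen, as were Muc19, Ms4a1, Myh1, the 4 globin genes, the 3 genes called by DESeq2 and the range of 0.5 to 20 CPM.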

Additional observations from a re-analysis of the deposited data

How the results depend on the processing

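No alternative called any of the 10 genes between the ages, with 7 to 10 of them tested. The count over all genes was 0 with edgeR, with RLE factors, with the 10 most abundant genes left out, with the CPM filter, with limma-voom and with Hspa1a and Hspa1b summed. It was 10 with total counts only, 7 with no low-count filter, 3 with DESeq2 (89 at an unadjusted p under 0.05), and 6 to 285 when 1 library was dropped (285 on dropping 8-week replicate 1, 6 for 8-week replicate 2, 11 for 32-week replicate 3, 17 for 32-week replicate 4). The cause was not tested. Leaving out single libraries turned the sign of 3 genes: Egr1 spanned -0.98 to 0.17, Dusp1 -0.029 to 0.46 and Hspa1a -0.29 to 0.77 in log2 fold change. The median of the 9 genes was 0.72 without 8-week replicate 1. The other 6 genes tested kept their sign in every setting that tested them. The CPM filter removed Fos and Hspa1a, so it gave no value for them. Where 1 library of an age is left, that library is assumed to vary like those of the other age. No paired analysis was possible because the ages share no replicate number. The depth limits Fosb, Fos, Hspa1a and Hspa1b most, with 1 to 28 counts a library.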
